A study of Mus musculus with 8 samples.

Results

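The annexins described here are 8 genes, Anxa1, Anxa2, Anxa3, Anxa4, Anxa5, Anxa6, Anxa7 and Anxa11, taken by symbol from a deposited table of 23469 genes. Their transcripts were followed in 4 Smart-seq2 libraries of AeEMs and 4 of AeMMs, macrophages sorted from the ascites that forms when mouse ovarian surface epithelial cells of the ID8 line grow in the peritoneal cavity. All animals were female C57BL/6 mice with the genotype given as Ms4a3TdT (Ms4a3Cre-RosaTdT), were injected intraperitoneally with ID8 cells at 4 to 5 weeks of age, had no other treatment on their labels and gave bloody ascites 65 days later. In this model Cre is expressed with Ms4a3 in granulocyte-monocyte progenitors and their progeny keep tdTomato, so tdTomato-negative AeEMs were taken as embryonic-derived and tdTomato-positive AeMMs as monocyte-derived. The assignment therefore rests on reporter recombination, and a monocyte-derived cell without recombination would be counted among AeEMs. The ascites came from 4 mice, so AeEM and AeMM libraries may share animals, but no source used here says which libraries do, and they were compared as unpaired.

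Annexins are soluble proteins that bind acidic phospholipids, above all phosphatidylserine, when calcium rises, through a conserved core of repeats, while a variable N-terminal tail binds partners such as S100 proteins. In macrophages they are known from membrane repair, vesicle traffic, the handling of apoptotic cells, the plasminogen system at the cell surface and the resolution of inflammation. Annexin A1 is the family member best known for the last of these, through formyl peptide receptors.

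Values are log2(TPM + 1), where TPM is a length-scaled transcript level that allows genes to be compared with each other. The table holds no read counts, so depth is unknown and no counting interval can be given. Each gene's mean had been made nearly equal in 3 library sets, made of the libraries numbered 1, those numbered 2, and those numbered 3 or 4. The unpaired limma fit is therefore accompanied by a set-adjusted limma fit, in which the sets enter as a covariate. The unpaired fit takes no account of the variation between sets that was removed, so its SE, intervals and p-values may be too small. All 8 macrophage markers on the list, among them Csf1r, Cd68 and Mertk, were above 1 TPM in every library and 0 of 8 passed the test. Of these, 7 had a lower mean in AeEMs, and the median log2 difference was -0.12. Groups did not overlap for Adgre1, Csf1r and Mertk, lower in AeEMs (6.53% of all tested genes), and for Cd68, higher in AeEMs (5.72%). Of 7 dendritic cell markers 3 were tested, and Cd209a and Itgax passed as higher in AeEMs. Ccr7 did not pass (limma, adjusted p = 0.145). The summed list was 44.1 to 106 TPM in AeEMs and 6.29 to 13.4 TPM in AeMMs. Of that sum Cd209a alone made up 36.0 to 96.1 TPM in AeEMs and 1.95 to 8.0 TPM in AeMMs. Flt3 and Zbtb46 stayed below 1 TPM throughout, and Xcr1 and Clec9a averaged below 1 TPM in both groups. Of 7 neutrophil markers only S100a8 reached the minimum of a mean of 1 TPM and was tested, and it passed as lower in AeEMs, with a sum of 10.7 to 12.9 TPM in AeEMs and 22.2 to 30.6 TPM in AeMMs, and Mpo, Camp, Ngp and Retnlg stayed below 1 TPM throughout. Mesothelial and epithelial markers summed to 3.84 to 6.65 TPM in AeEMs and 4.53 to 6.28 TPM in AeMMs, with Msln, Upk1b, Epcam and Wt1 below 1 TPM in all 8 libraries. Of 7 T and NK cell markers only Nkg7 was tested, and it passed as lower in AeEMs, but it reached the minimum only through AeMMs (0.637 TPM on average in AeEMs and 7.67 TPM in AeMMs). The T and NK list, Nkg7 included, had a sum of 0.644 to 3.56 TPM in AeEMs and 6.41 to 16.7 TPM in AeMMs. In it Cd3e, Cd8a and Ncr1 stayed below 1 TPM in all 8 libraries, and the groups overlapped for Cd3d, Cd4 and Trac. Of 4 tested B cell markers 0 passed, with a list sum of 34.35 to 84.6 TPM in AeEMs and 65.2 to 76.3 TPM in AeMMs. Erythroid and platelet markers were abundant, at 13020 to 17050 TPM in AeEMs and 9116 to 14590 TPM in AeMMs, and 0 of 4 tested passed. Hba-a1 averaged 5844 TPM in AeEMs and 3650 TPM in AeMMs, Hbb-bs 3540 and 2190 TPM, and Pf4 5353 and 5139 TPM, all with overlapping groups. Ly6c2, whose protein was in the sort panel, was lower in AeEMs, and Ms4a3 was not analysed here. Of these marker calls, that of Cd209a alone held in the set-adjusted fit.

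Ascites macrophages of both origins carried 7 of the 8 annexins at a mean above 1 TPM, and Anxa11 stayed under 1 TPM in every library. Anxa5 was the most abundant member in every library, at 155 ± 5.15 TPM in AeEMs and 156 ± 1.90 TPM in AeMMs (SD, n = 4 libraries each). In all 4 AeEM libraries it was followed by Anxa2, Anxa3 and Anxa1, and in all 4 AeMM libraries by Anxa3, Anxa2 and Anxa1. Anxa4 and Anxa7 came next, and their ranges overlapped in both groups. Within a library Anxa4 minus Anxa7 was -0.30 to 0.51 on the log2 scale in AeEMs, above 0 in 3 of 4, so the pair was not separated beyond its spread there, and -0.16 to -0.13 in AeMMs, below 0 in all 4. Anxa6 stood below them and Anxa11 last. All other neighbours in the order had ranges that did not overlap within a group.

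The 8 annexins together made up 363.1, 370.5, 392.7 and 370.2 TPM in AeEM replicates 1 to 4, against 357.5, 348.8, 333.4 and 352.1 TPM in AeMM replicates 1 to 4. Every AeEM library had a higher sum than every AeMM library, by a small margin at the nearest pair. Within that sum Anxa2 took 19.2% to 20.4% in AeEMs and 14.4% to 16.6% in AeMMs, and Anxa3 took 15.2% to 16.9% in AeEMs and 18.4% to 21.1% in AeMMs. Anxa1 made up 9.36% to 11.1% in AeEMs and 6.56% to 8.54% in AeMMs. Shares of one sum are bound to each other, so that of Anxa5, 40.0% to 42.7% in AeEMs and 43.4% to 46.8% in AeMMs, did not overlap although its level hardly differed.

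**Figure D1:**
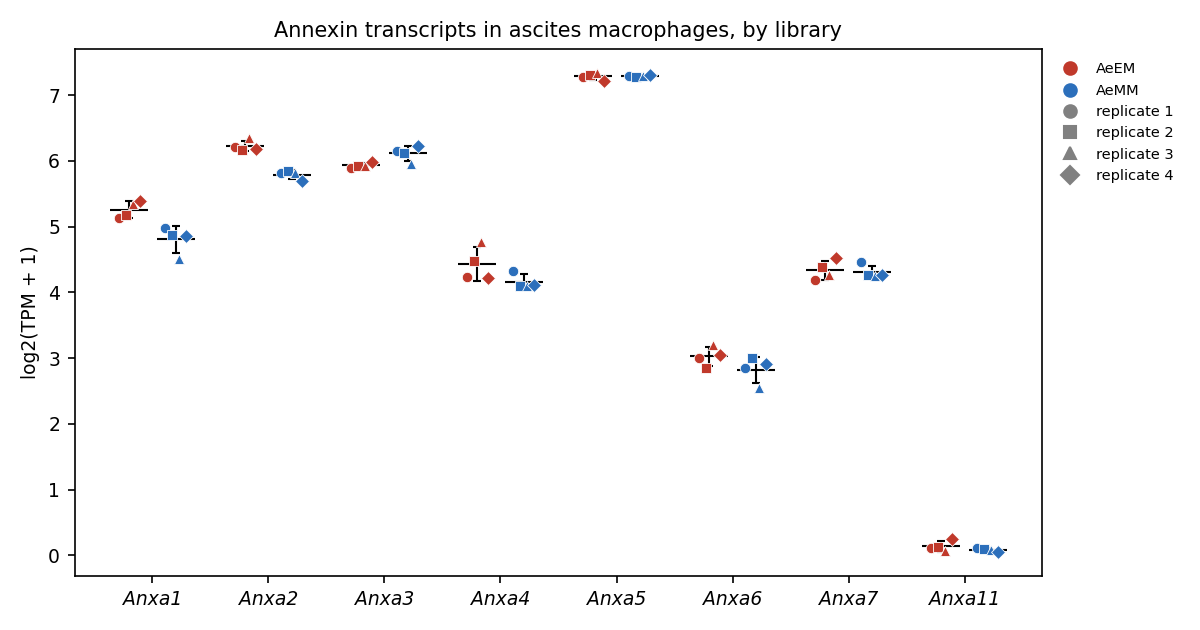
Level of each annexin, in log2(TPM + 1), in 4 AeEM libraries (red, left) and 4 AeMM libraries (blue, right), with marker shape giving the replicate number, black dashes the group mean and bars the SD. Only Anxa1 and Anxa2 have groups that do not overlap, both higher in AeEMs, while Anxa5 is level at the top and Anxa11 lies near 0.

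Anxa2 was the only annexin that passed the unpaired test, as higher in AeEMs. Its protein forms a complex with S100A10 that binds plasminogen and its activator at the cell surface. Anxa2 lies on mm10 at chr9:69453620-69491795 on the plus strand. It read 6.22, 6.17, 6.34 and 6.18 log2(TPM + 1) in AeEM replicates 1 to 4, against 5.81, 5.85, 5.81 and 5.69 in AeMM replicates 1 to 4. Both groups were tight, and the lowest AeEM library was well above the highest AeMM library. On the TPM scale this was 74.0 ± 4.24 in AeEMs and 54.4 ± 2.55 in AeMMs (SD, n = 4 each). The log2 difference was 0.44 (SE 0.069, 95% interval 0.28 to 0.59), or 1.35-fold, with an adjusted p of 0.0156 in limma. The call was lost in the set-adjusted limma fit (adjusted p = 0.212), although the difference was positive in each set, at 0.40 for number 1, 0.32 for number 2 and 0.51 for numbers 3 and 4. It was also lost on leaving out AeEM replicate 1 (adjusted p = 0.0684), AeEM replicate 2 (0.0522), AeMM replicate 1 (0.0641) or AeMM replicate 2 (0.0521), with log2 differences between 0.40 and 0.46 over all 8 such fits of limma.

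Anxa1 stood apart between the groups by a similar amount but with a wider spread, and missed the threshold. Annexin A1, first described as lipocortin, is induced by glucocorticoids and its N-terminal part is an agonist of formyl peptide receptors. The gene lies at chr19:20373428-20390944 on the minus strand. It read 5.13, 5.18, 5.34 and 5.39 log2(TPM + 1) in AeEM replicates 1 to 4, against 4.98, 4.88, 4.52 and 4.86 in AeMM replicates 1 to 4. The groups did not overlap, and AeMM replicate 3 was the lowest library by a clear step. The nearest values were those of replicate 1 in both groups, which the adjustment between sets makes mirror each other. The mean was 37.5 ± 3.38 TPM in AeEMs and 27.2 ± 3.72 TPM in AeMMs (SD, n = 4 each). Its log2 difference of 0.45 (SE 0.115, 95% interval 0.19 to 0.71) had an adjusted p of 0.0795 in the unpaired limma fit and 0.386 in the set-adjusted fit. It was positive in each set, at 0.15, 0.30 and 0.68 for number 1, number 2 and numbers 3 and 4. Over the 19 alternatives its adjusted p in limma ran between 0.0581 and 0.647.

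These counts were read against all genes. Of the 7 annexins tested 1 was called higher in AeEMs and 0 lower, where 1.25% of the 8801 tested genes were called higher and 1.16% lower. In the set-adjusted fit 0 of 7 were called, where 0.102% of genes were called higher and 0.0568% lower. At an unadjusted p under 0.05 limma had 3 of 7 annexins (Anxa1, Anxa2 and Anxa3) in the unpaired fit and 2 of 7 (Anxa1 and Anxa2) in the set-adjusted fit, where 18% of all tested genes had such a p in the unpaired fit and 9.64% in the set-adjusted fit. Groups did not overlap for 2 of 7 annexins, both higher in AeEMs, where this held in that direction for 5.72% of all tested genes. The median log2 difference of the 7 was 0.20, with 5 positive and 2 negative, beside -0.01 over all tested genes. Cd209a and Itgax were higher and S100a8 lower in the same AeEM libraries, and the part of these markers in the annexin differences was not tested. In sorted bulk samples, fewer cells of a type and less RNA per cell cannot be told apart.

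**Figure D2:**
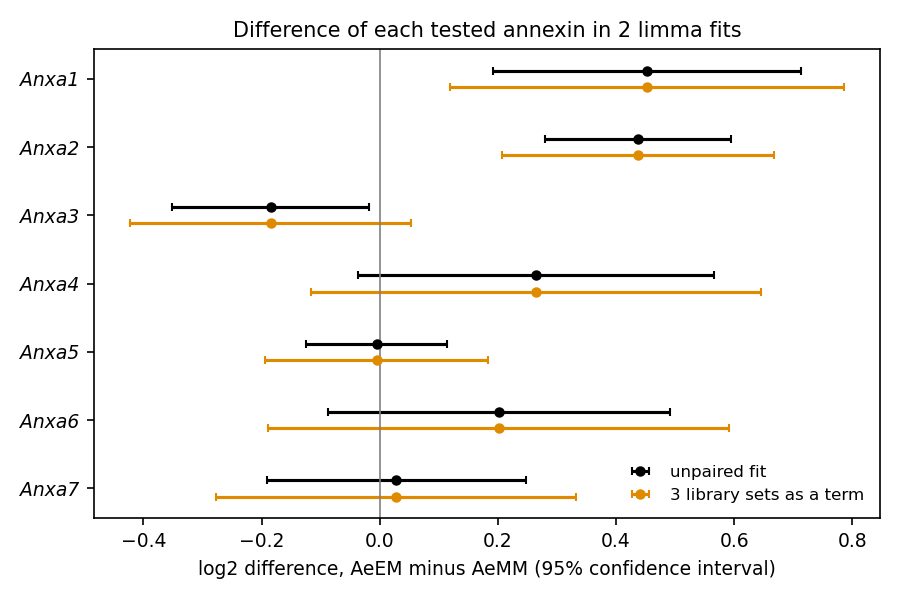
Log2 difference of each of the 7 tested annexins, AeEM minus AeMM, with its 95% confidence interval in the unpaired limma fit (black) and in the fit with the 3 library sets as a covariate (orange). In the unpaired fit the intervals of Anxa1 (0.19 to 0.71) and Anxa2 (0.28 to 0.59) lie above 0. With the sets as a covariate they also lie above 0 (0.12 to 0.79 and 0.21 to 0.67). Those of Anxa3 lie below 0 in the unpaired fit only, and the other 4 include 0. The intervals are not adjusted for the number of genes tested. With the sets as a covariate neither Anxa1 nor Anxa2 passed (limma, adjusted p = 0.386 and 0.212).

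Because Anxa1 and Anxa2 were the members whose groups did not overlap, their start sites were compared with those of the other annexins. RefSeq promoter windows on GRCm38.p6, 250 bases before to 50 after a start, were found for 6 of the 8 genes (8 windows, with none for Anxa3 and Anxa6). The letters TATAAA, searched on both strands, were present in the windows of Anxa1 and Anxa2 and in none of the other 6, against 13.6% of 32851 windows of the same length. The matches began 32 bases before the RefSeq start of Anxa1 and 17 before that of Anxa2. In both genes the outermost GENCODE M21 start lies further upstream, so that the matches fall inside the gene as GENCODE annotates it. The 30 bases around each are shown with TATAAA in capitals, beside the same stretch of Anxa5, the most abundant and most even member, which has no match. They lie at chr19:20390688-20390717 (minus strand), chr9:69453652-69453681 (plus strand) and chr3:36475889-36475918 (minus strand).
Anxa1: ttcagttcatatccTATAAAatcaggagtc
Anxa2: gaggatggggcgggTATAAAagccccaccc
Anxa5: atagaggctaggacgtggcagggcgtgtcc
A match of this kind describes the sequence and does not show that a factor binds it. By gene, 15.7% of those with a window hold a match. Both genes were picked by their values in these same libraries and several motifs were searched, so the shared letters are a description only. Any link to the expression differences was not tested.

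The Anxa2 window also held the AP-1 letters TGANTCA, 95 bases before the start, which 7.81% of all windows hold and no other annexin window did. The GC box letters GGGCGG (35.7% of windows) were found in the windows of Anxa2, Anxa4, Anxa7 and Anxa11 and not in those of Anxa1 and Anxa5, and in Anxa2 1 of its 3 matches ends 1 base before the TATAAA. Neither the letters CCAAT (37.4% of windows) nor the palindromic glucocorticoid response element (0.00913% of windows) were found in an annexin window, which says only that those letters are not in these windows. The part of the Anxa2 window before its outermost annotated start, chr9:69453433-69453619, is shown because it holds the AP-1 letters, which are in capitals with its first GC box.
Anxa2, upstream: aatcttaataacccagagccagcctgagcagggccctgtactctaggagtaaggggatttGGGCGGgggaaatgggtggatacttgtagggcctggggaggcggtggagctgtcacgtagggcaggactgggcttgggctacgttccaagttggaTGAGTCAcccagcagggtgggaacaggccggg

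Anxa3 had a lower mean in AeEMs, as did Anxa5 by a far smaller amount. Its protein is known in human neutrophils, where it associates with granules. The gene lies at chr5:96793339-96845966 on the plus strand. It read 5.90, 5.92, 5.93 and 5.99 log2(TPM + 1) in AeEM replicates 1 to 4, against 6.15, 6.13, 5.96 and 6.23 in AeMM replicates 1 to 4. The AeEM libraries lay within a narrow band, and the groups overlapped only because AeMM replicate 3 fell just below AeEM replicate 4. The mean was 60.1 ± 1.59 TPM in AeEMs and 68.6 ± 5.40 TPM in AeMMs (SD, n = 4 each). The log2 difference of -0.18 (SE 0.074, 95% interval -0.35 to -0.02) did not pass the test, with an adjusted p of 0.227 in the unpaired limma fit and 0.639 in the set-adjusted fit. S100a8, the only tested member of the neutrophil list, was lower in AeEMs by 1.03 on the log2 scale (limma, adjusted p = 0.00437, set-adjusted fit 0.0605). The other members averaged below 1 TPM in both groups, with S100a9 at 0.0448 TPM in AeEMs and 0.384 TPM in AeMMs. Any part of S100a8 in the Anxa3 values was not tested.

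The order of Anxa2 and Anxa3 differed between the groups. Anxa2 minus Anxa3 was 0.32, 0.25, 0.42 and 0.19 on the log2 scale in AeEM replicates 1 to 4, against -0.34, -0.28, -0.15 and -0.54 in AeMM replicates 1 to 4. Thus Anxa2 was the higher of the pair in 4 of 4 AeEM libraries and in 0 of 4 AeMM libraries. The 4 libraries of a group are not independent signs here, because the adjustment gives each set nearly the same mean, which lay close to 0 for this measure, so that the AeEM and AeMM libraries numbered 1 mirror each other, as do those numbered 2. The pair was chosen after its values were seen, so this is given as a description with no test. The difference between the group means of this measure stayed between 0.55 and 0.68 when each library was left out in turn. Against Anxa5 the picture was of the same kind, with Anxa2 minus Anxa5 at -1.13 to -0.99 in AeEMs and -1.62 to -1.43 in AeMMs. Anxa2 minus Anxa1, in contrast, covered 0.79 to 1.09 in AeEMs and 0.83 to 1.30 in AeMMs, so the ratio of these 2 members overlapped between the groups.

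**Figure D3:**
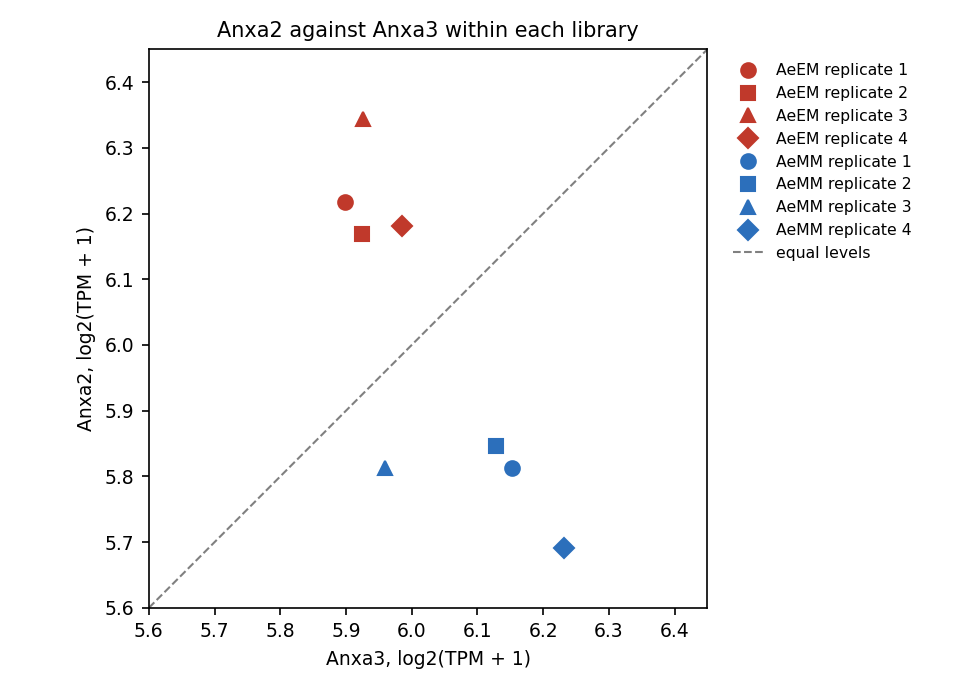
Anxa2 (vertical) against Anxa3 (horizontal), both in log2(TPM + 1), in each AeEM library (red) and each AeMM library (blue), with a dashed line where the levels are equal. All 4 AeEM libraries lie above the line and all 4 AeMM libraries below it.

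Anxa5, whose protein lies as a lattice on phosphatidylserine and is used as a probe for apoptotic cells, had the most even level of the family. The gene lies at chr3:36448923-36475894 on the minus strand. It read 7.28, 7.30, 7.34 and 7.22 log2(TPM + 1) in AeEM replicates 1 to 4, against 7.29, 7.27, 7.29 and 7.31 in AeMM replicates 1 to 4. The groups lay on top of each other, with AeEM replicates 3 and 4 as the highest and the lowest library of all. The log2 difference was -0.01 (SE 0.053, limma, adjusted p = 0.976), and its 95% interval of -0.12 to 0.11 spans 0.917-fold to 1.08-fold. The sign of this value turned under 4 alternatives, the furthest at 0.04.

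Anxa4, Anxa6 and Anxa7 were the lower-level members and none passed the test. Anxa4 (chr6:86736840-86793584, minus strand), an annexin known from epithelial cells, read 4.23, 4.48, 4.77 and 4.22 log2(TPM + 1) in AeEM replicates 1 to 4, against 4.33, 4.10, 4.10 and 4.11 in AeMM replicates 1 to 4. AeEM replicates 2 and 3 were above all AeMM libraries, whereas AeEM replicates 1 and 4 were below AeMM replicate 1. For Anxa4 the log2 difference was 0.26 (SE 0.133, 95% interval -0.04 to 0.57, limma, adjusted p = 0.348).

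Anxa6 (chr11:54979108-55033445, minus strand) encodes the member with a duplicated core, which is known from late endosomes and cholesterol traffic. It read 3.004, 2.86, 3.20 and 3.05 log2(TPM + 1) in AeEM replicates 1 to 4, against 2.85, 3.002, 2.55 and 2.91 in AeMM replicates 1 to 4. AeMM replicate 3 was again the lowest library and AeEM replicate 3 the highest, while the rest overlapped. For Anxa6 it was 0.20 on the log2 scale (SE 0.128, 95% interval -0.09 to 0.49, limma, adjusted p = 0.462).

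Anxa7 (chr14:20455260-20480133, minus strand), first described as synexin, has a long N-terminal tail that binds sorcin and ALG-2. It read 4.19, 4.39, 4.26 and 4.52 log2(TPM + 1) in AeEM replicates 1 to 4, against 4.46, 4.26, 4.25 and 4.27 in AeMM replicates 1 to 4. The libraries of both groups were interleaved. Their log2 difference was 0.03 (SE 0.097, 95% interval -0.19 to 0.25, limma, adjusted p = 0.925).

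Anxa11 (chr14:25842156-25886804, plus strand), whose protein binds ALG-2 and links RNA granules to lysosomes, was listed close to 0. It read 0.11, 0.12, 0.07 and 0.25 log2(TPM + 1) in AeEM replicates 1 to 4, against 0.11, 0.10, 0.09 and 0.06 in AeMM replicates 1 to 4, or at most 0.188 TPM in AeEMs and 0.0767 TPM in AeMMs. It was below the minimum for testing and no fold is given. Of its 4135 exon bases 113 (2.73%) overlap the antisense gene Anxa11os, and whether reads were counted by strand is not given in the sources used here. Among the other mouse annexins, Anxa8, Anxa10 and Anxa13 were also at or close to 0. Anxa9 was low, at 1.42 ± 0.25 log2(TPM + 1) in AeEMs and 1.34 ± 0.36 in AeMMs (SD, n = 4 each), with a log2 difference of 0.08 (limma, adjusted p = 0.894).

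Among the partners, the 4 S100 genes whose proteins bind annexins all had a higher mean in AeEMs, and S100a4 alone passed the test. S100A10 is the obligate partner of annexin A2 in its plasminogen-binding complex. S100a10 read 6.62, 6.46, 6.84 and 6.71 log2(TPM + 1) in AeEM replicates 1 to 4, against 6.51, 6.61, 6.39 and 6.19 in AeMM replicates 1 to 4. The groups overlapped, with AeMM replicate 2 above AeEM replicate 2, and the log2 difference of 0.23 (SE 0.110) did not pass (limma, adjusted p = 0.312). Within each library Anxa2 lay below S100a10, by a difference of -0.53 to -0.30 in AeEMs and -0.76 to -0.50 in AeMMs.

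S100A11 binds the N-terminal tail of annexin A1. S100a11 read 5.26, 5.29, 5.14 and 5.10 log2(TPM + 1) in AeEM replicates 1 to 4, against 4.81, 4.73, 5.15 and 4.65 in AeMM replicates 1 to 4. The groups would be apart but for AeMM replicate 3, which lay among the AeEM libraries. S100a11 differed by 0.36 on the log2 scale (SE 0.115, limma, adjusted p = 0.141), and without AeMM replicate 3 it was 0.47 and passed (limma, adjusted p = 0.0370). It did not pass in the other 18 of 19 alternatives, among them the set-adjusted limma fit (adjusted p = 0.471). S100a6, whose protein binds annexin A11 among others, differed by 0.39 (SE 0.15, limma, adjusted p = 0.209) with overlapping groups.

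S100a4, whose protein binds annexin A2 and is known from cell motility, read 7.99, 8.21, 8.34 and 8.47 log2(TPM + 1) in AeEM replicates 1 to 4, against 7.47, 7.16, 6.69 and 7.19 in AeMM replicates 1 to 4. The groups were apart, with replicate 1 of each as the nearest pair, which the adjustment between sets makes mirror each other. S100a4 differed by 1.13 on the log2 scale (SE 0.164), with an adjusted p of 0.0113 in the unpaired limma fit and 0.0712 in the set-adjusted fit. In GENCODE M21, 51.7% of the exon bases of S100a4 are shared with Gm42674 on the same strand, so how its reads were assigned is uncertain. Beside 1.25% of all tested genes, 1 of these 4 was called higher, and their median difference was 0.38.

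The formyl peptide receptors, through which annexin A1 acts, had lower means in AeEMs and did not pass. Fpr1 read 5.84, 5.94, 6.07 and 5.37 log2(TPM + 1) in AeEM replicates 1 to 4, against 6.13, 6.05, 6.08 and 6.47 in AeMM replicates 1 to 4. Fpr2 read 4.25, 3.81, 3.80 and 3.21 in AeEM replicates 1 to 4, against 3.85, 4.29, 4.76 and 4.41 in AeMM replicates 1 to 4. AeEM replicate 4 was the lowest library for both receptors, and the groups overlapped in both. The log2 difference was -0.38 (SE 0.158, limma, adjusted p = 0.254) for Fpr1 and -0.56 (SE 0.244, limma, adjusted p = 0.270) for Fpr2, a gene with close copies in the mouse genome. The 3 other receptor genes in the table stayed below 1 TPM.

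**Figure D4:**
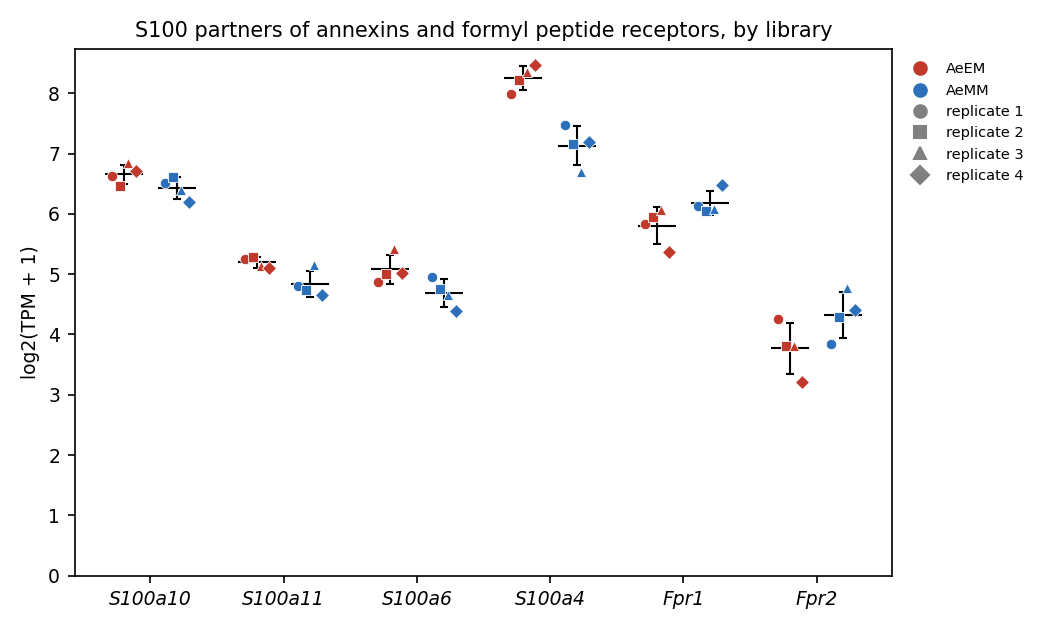
Levels, in log2(TPM + 1), of 4 S100 partners of annexins and 2 formyl peptide receptors in 4 AeEM libraries (red, left) and 4 AeMM libraries (blue, right), with black dashes for the group mean and bars for the SD. S100a4 alone has groups that do not overlap, higher in AeEMs, and both receptors have lower AeEM means with overlapping libraries.

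In the list on plasminogen activation at the cell surface, the process that the annexin A2 complex serves, 2 of 5 tested genes were higher in AeEMs and 0 lower, where 1.25% of all tested genes were called higher. Eno1, a glycolytic enzyme that also binds plasminogen, stood at 8.24 ± 0.03 log2(TPM + 1) in AeEMs and 7.64 ± 0.14 in AeMMs (SD, n = 4 each), a difference of 0.60 (SE 0.076, limma, adjusted p = 0.00613). Serpinb2, an inhibitor of plasminogen activators, stood at 2.10 ± 0.34 in AeEMs and 0.52 ± 0.33 in AeMMs, a difference of 1.58 (SE 0.216, limma, adjusted p = 0.00864) that was 2.80 with a pseudocount of 0.1 and 0.61 with a pseudocount of 5. Serpinb2 averaged 3.39 TPM in AeEMs and 0.462 TPM in AeMMs, so it reached the minimum for testing only through AeEMs, and its call is not counted as support for the list. Neither gene's groups overlapped, which held in this direction for 5.72% of all tested genes, and both had an adjusted p of 0.0712 in the set-adjusted limma fit. These 2 genes act mainly as an enzyme of glycolysis and as an inhibitor, and the activator Plau and the receptors Plaur and Plgrkt did not pass. Plg, plasminogen itself, was not analysed here.

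No call was made in the remaining annexin-related lists. Among proteins that bind annexins or mend membranes beside them, 0 of 5 tested genes passed, with Pdcd6, which encodes ALG-2, at a log2 difference of -0.04 and Sri, which encodes sorcin, at 0.03. Of genes for phosphatidylserine exposure, 0 of 6 passed, and the scramblase subunit Xkr8 had a difference of 0.53 (limma, adjusted p = 0.218) with overlapping groups. Of other calcium-dependent phospholipid-binding proteins, 0 of 6 passed, although the groups did not overlap for Cpne1 (-0.32) and Syt11 (-0.29), both lower in AeEMs, where this held for 6.53% of all tested genes. Phospholipase A2 and eicosanoid genes, the setting in which lipocortin was first described, had 0 of 6 calls and a median of -0.01. Glucocorticoid-induced genes, among them Tsc22d3, Fkbp5 and Per1, had 0 of 9 calls and a median of -0.04. By unadjusted p under 0.05, limma had 1587 of all 8801 genes.

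Among 3209 genes whose mean reached 10 TPM, the 3 whose values were most like those of Anxa2 over the 8 libraries were H1f0 (Pearson r = 0.991), Eif5a (0.991) and Prelid1 (0.988). H1f0 encodes a linker histone, Eif5a a translation factor and Prelid1 a mitochondrial lipid transfer protein. H1f0 read 5.84, 5.84, 5.97 and 5.80 log2(TPM + 1) in AeEM replicates 1 to 4, against 5.34, 5.38, 5.44 and 5.26 in AeMM replicates 1 to 4. As with Anxa2, AeEM replicate 3 was the highest library and AeMM replicate 4 the lowest. These correlations are descriptions over 8 points that fall into 2 groups and share the same adjustment between sets.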

How the data were processed

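The authors prepared Smart-seq2 libraries of sorted cells, trimmed their reads by fastp, aligned against mm10 using STAR 2.7.2a and summarised genes in featureCounts of Subread, per the paper and the submitters' processing notes. The deposited values are log2(TPM + 1), as read from the values. Strand setting, annotation and the steps from counts to TPM, log and adjustment between the 3 library sets are not given in the sources used here. Negative values, left by that adjustment, were set to 0 TPM. AeEM minus AeMM was tested in limma 3.58.1 under R 4.3.3, as an unpaired comparison whose prior variance followed expression (trend), across the 8801 genes averaging 1 TPM or more, with Benjamini-Hochberg adjustment over all of them and a threshold of 0.05. The fits were run on simulated data only as a check of the code, and no call rests on it. Gene positions came from GENCODE M21 (22996 symbols matched) and promoter windows from RefSeq. Named were all annexins, list members past the threshold, fixed partners, and the 3 genes most like an annexin that passed. Xkr8, Cpne1 and Syt11 and list examples were named after their values were seen. Members and lists were chosen with earlier results of these data known. Replicates are labelled biological, but p-values measure the spread of these libraries. Variation between sets had been taken out of that spread, which the unpaired fit does not count. Its SE for Anxa2 was 0.069, against 0.099 in the set-adjusted fit. A gene of the plasminogen list is not reported here.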

Additional observations from a re-analysis of the deposited data

Results flagged for a closer look

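Among groups of 4 libraries, Dixon's test at its 95% critical value was applied to 46 groups of named genes, and 2 were marked, where chance marks about 1 in 20. Anxa4 in AeMM replicate 1 read 4.33 log2(TPM + 1), while the other 3 AeMM libraries lay between 4.10 and 4.11. Anxa7 in AeMM replicate 1 read 4.46, while the other 3 AeMM libraries lay between 4.25 and 4.27. Both values come from the same library, and in both genes it lay among the AeEM libraries. The adjustment between sets makes the libraries numbered 1 mirror each other, so a mark on AeMM replicate 1 may stem from AeEM replicate 1. The chance rate given holds only for independent values.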

How the results depend on the processing

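Each result was recomputed under up to 19 alternatives in limma. In the set-adjusted fit, genes called numbered 9 higher and 5 lower over all genes, 0 higher among annexins, 0 higher in partner lists, and 1 higher and 0 lower in marker lists. Deviations of same-numbered libraries had correlations of -0.992, -0.999, -0.199 and -0.133 for numbers 1 to 4. The adjustment forces those for numbers 1 and 2 toward -1. It also lowers those for numbers 3 and 4, which share a set mean, so the check for pairing is void. The replicate block gave 3 higher and 2 lower over all genes, 0 higher among annexins, 0 higher in partner lists, 1 higher and 0 lower in marker lists, and an adjusted p of 0.209 for Anxa2. With replicates 3 and 4 only, 0 genes were called in either direction in any list or over all genes (Anxa2: difference 0.51, adjusted p = 0.687). Leaving out each library in turn gave 40 to 106 genes higher and 31 to 113 lower over all genes, 0 to 1 higher among annexins, 3 to 4 higher in partner lists and 2 to 3 higher in marker lists. Marker lists had 1 lower with no filter, and 1 higher and 1 lower with a filter of 5 TPM. Without the trend 58 genes were lower. Anxa5 turned positive with quantile normalization (0.040) and median-of-ratios size factors (0.015), and lay between -0.022 and 0.016 over the left-out libraries. Anxa7 lay between -0.031 and 0.077, Anxa9 between -0.051 and 0.183 and Sri between -0.030 and 0.070 on leaving out a library. Anxa1, Anxa2, Anxa3, Anxa4 and Anxa6 kept their sign under all alternatives run. Unknown depth limits what can be said of Anxa11 and other genes near 0.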
